A study of Mus musculus with 16 samples.

Results

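Aminoacyl-tRNA synthetases were examined on 16 expression microarrays, using total RNA of embryonic fibroblasts (MEFs) from mice, connective tissue cells grown in culture. The genes came from a list of 34 synthetase genes, and those whose names end in ars, arsa or arsb were taken as cytosolic and those ending in ars2 as mitochondrial. Of the 34 genes, 33 had a probe set with their symbol alone, 17 cytosolic and 16 mitochondrial, out of 19938 genes tested, and Mars was not analysed here. All 33 genes are described, with no filter on dim signals. Iars had 2 probe sets and was read on the brighter one, and every other gene had 1.

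Cells of an ATF5-KD line stably expressing a short hairpin RNA (shRNA) against Atf5, here called knockdown cells, were compared with wild-type cells carrying a scramble shRNA, here called control cells. Each line was kept for 8 h with 1 µM MG132, which blocks the proteasome, the main protein-degrading complex of the cell, or with vehicle (DMSO, labelled sham). Each of the 4 groups had 4 plates, with 1 array per plate, and all cells were grown in the same medium (DMEM). The labels name 1 stable line per genotype and do not say whether it is a clone or a pool, so a difference between the lines and an effect of the shRNA cannot be told apart. They do not say that plates were separate cultures, and the p-values reflect no more than plate-to-plate spread, which may be technical.

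A synthetase joins 1 amino acid to its tRNA, the step that supplies the ribosome with charged tRNAs. Mammalian cells carry one set of enzymes for the cytosol and another for mitochondria, where a few proteins of the respiratory chain are translated from messages of mitochondrial DNA. Both sets are encoded in the nucleus, and the mitochondrial enzymes are imported after translation. Gars and Kars are exceptions, since each of these genes gives rise to both a cytosolic and a mitochondrial enzyme. Several cytosolic enzymes, those of Eprs, Iars, Lars, Qars, Rars and Kars among them, are held in a multi-synthetase complex. In stressed mammalian cells the transcription factor ATF4 is known to raise the transcription of many cytosolic synthetase genes as part of the integrated stress response, in which amino acid shortage or misfolded protein slows general translation. ATF5 belongs to the same family of factors.

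The letters of promoter windows are shown for the members whose windows hold a motif of that pathway and for 2 mitochondrial members whose RNA fell with MG132. RefSeq windows of assembly GRCm38.p6, running from 250 bases before to 50 bases after a gene's start, were matched by symbol for 24 of the 33 genes, 10 cytosolic and 14 mitochondrial. The motif TGATGNAA, the core of elements that ATF4 binds with C/EBP partners, was searched on both strands, where N is any base. It was present for 4 of the 10 cytosolic genes, Tars, Yars, Iars and Gars, for 0 of the 14 mitochondrial genes, and in 3.97% of all 32851 mouse windows. Members were counted by gene, with any window of the gene, and all mouse promoters by window. The palindrome TGACGTCA, the full CRE element bound by CREB and ATF factors, was present for 0 of the 10 cytosolic and 0 of the 14 mitochondrial genes and in 1.79% of all windows. No window of a member held both motifs, so no matches overlapped.
Tars: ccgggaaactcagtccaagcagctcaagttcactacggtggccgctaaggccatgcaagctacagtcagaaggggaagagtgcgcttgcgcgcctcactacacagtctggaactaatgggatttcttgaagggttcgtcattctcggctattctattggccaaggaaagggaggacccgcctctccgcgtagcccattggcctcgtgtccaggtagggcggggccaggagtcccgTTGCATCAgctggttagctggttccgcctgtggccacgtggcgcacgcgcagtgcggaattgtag
Yars: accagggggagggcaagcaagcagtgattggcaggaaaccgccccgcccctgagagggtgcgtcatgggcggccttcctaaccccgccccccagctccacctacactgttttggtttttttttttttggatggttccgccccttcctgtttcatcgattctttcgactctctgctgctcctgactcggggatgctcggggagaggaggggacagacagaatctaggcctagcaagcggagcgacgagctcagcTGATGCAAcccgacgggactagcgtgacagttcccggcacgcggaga
Iars: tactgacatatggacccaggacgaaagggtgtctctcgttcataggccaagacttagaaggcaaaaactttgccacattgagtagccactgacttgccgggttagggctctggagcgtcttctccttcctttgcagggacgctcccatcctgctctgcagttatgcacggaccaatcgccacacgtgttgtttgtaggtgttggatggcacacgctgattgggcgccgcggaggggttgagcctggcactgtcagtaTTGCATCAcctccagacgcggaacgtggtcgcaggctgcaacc
Gars: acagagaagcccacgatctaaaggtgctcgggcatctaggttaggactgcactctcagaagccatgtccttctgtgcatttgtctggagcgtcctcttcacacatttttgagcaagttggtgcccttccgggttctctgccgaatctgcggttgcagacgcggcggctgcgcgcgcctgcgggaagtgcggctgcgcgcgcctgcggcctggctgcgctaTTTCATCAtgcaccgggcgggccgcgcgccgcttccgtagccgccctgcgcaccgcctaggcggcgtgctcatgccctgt
Mars2: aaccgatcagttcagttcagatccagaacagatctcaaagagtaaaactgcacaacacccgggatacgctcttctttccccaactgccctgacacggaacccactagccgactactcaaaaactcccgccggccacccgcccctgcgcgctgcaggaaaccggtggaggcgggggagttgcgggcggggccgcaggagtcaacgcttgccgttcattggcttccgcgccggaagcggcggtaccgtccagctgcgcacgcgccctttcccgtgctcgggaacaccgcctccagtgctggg
Iars2: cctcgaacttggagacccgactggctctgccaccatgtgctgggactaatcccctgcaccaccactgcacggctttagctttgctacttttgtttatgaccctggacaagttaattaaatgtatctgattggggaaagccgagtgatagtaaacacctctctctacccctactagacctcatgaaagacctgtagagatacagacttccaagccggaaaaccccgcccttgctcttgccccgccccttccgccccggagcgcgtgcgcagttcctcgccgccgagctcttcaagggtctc
The capitals mark the match, read along the gene's strand, and the Mars2 and Iars2 windows have none. The Tars window is chr15:11399609-11399908 on the minus strand, with the match at bases 236 to 243 of the window. The Yars window is chr4:129189653-129189952 on the plus strand, with the match at bases 254 to 261. For Iars the window is chr13:49681880-49682179 on the plus strand and the match lies at bases 258 to 265. For Gars it is chr6:55037751-55038050 on the plus strand and the match lies at bases 221 to 228. The Mars2 window is chr1:55236927-55237226 on the plus strand and the Iars2 window is chr1:185329352-185329651 on the minus strand. The match reads TTGCATCA in Tars and Iars, TTTCATCA in Gars and TGATGCAA in Yars. A match describes letters in these windows and is no evidence of binding.

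The 16 arrays had medians of 7.71 to 7.82 (log2), and precision is limited by how many arrays there are. Atf5, the target of the shRNA, read 8.45, 8.43, 8.45 and 8.49 in knockdown cells with MG132 and 8.32, 8.39, 8.28 and 8.41 in knockdown cells with vehicle. It read 8.75, 8.72, 8.68 and 8.91 in control cells with MG132 and 8.68, 8.51, 8.46 and 8.62 in control cells with vehicle. The knockdown arrays were below the control arrays in both treatments, by a log2 difference of -0.31 ± 0.05 (limma SE, adjusted p = 0.000148) with MG132 and -0.22 ± 0.05 (adjusted p = 0.00321) with vehicle. The mean of 10 fibroblast markers lay between 9.87 and 9.96 in knockdown cells with MG132, 10.08 and 10.14 in knockdown cells with vehicle, 9.69 and 9.71 in control cells with MG132, and 9.94 and 9.97 in control cells with vehicle. The means of the 10 single genes over all 16 arrays ran from 4.75 to 14.16. With MG132, 2 of these markers rose and 5 fell in knockdown cells, and 1 rose and 6 fell in control cells. Beside these and the next marker counts, 16.4% of all genes rose and 24.3% fell in knockdown cells with MG132. In control cells 16.8% of all genes rose and 19.0% fell. Of 6 macrophage markers, 2 rose and 0 fell with MG132 in knockdown cells, and 2 rose and 0 fell in control cells. Their mean lay between 6.998 and 7.08 in knockdown cells with MG132, 6.83 and 6.95 in knockdown cells with vehicle, 6.80 and 6.88 in control cells with MG132, and 6.69 and 6.79 in control cells with vehicle, without overlap in either line. Of 5 endothelium markers 2 rose in knockdown and 1 in control cells, and of 5 epithelium markers 0 rose in knockdown and 2 in control cells, while 0 fell in both lists. Endothelium means did not overlap in control cells, at 7.04 to 7.19 with MG132 and 6.95 to 7.03 with vehicle, and overlapped in knockdown cells, as the epithelium means did in both lines. The part of these marker shifts in the results was not tested. A gradient within groups held 37.8% of the within-group variance, with control MG132 array 4 and knockdown vehicle array 1 at its low end.

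With MG132 most cytosolic synthetase genes rose and most mitochondrial ones fell, in both lines. In knockdown cells 15 of 17 cytosolic genes rose and 0 fell, while 12 of 16 mitochondrial genes fell and 1 rose (limma, Benjamini-Hochberg adjusted p below 0.05). Of all genes tested, 16.4% rose and 24.3% fell in that comparison. In control cells 12 cytosolic genes rose and 0 fell, and 10 mitochondrial genes fell and 2 rose, against 16.8% of all genes that rose and 19.0% that fell. The median log2 fold change of the cytosolic genes was 0.23 in knockdown cells and 0.22 in control cells. That of the mitochondrial genes was -0.23 in knockdown cells and -0.24 in control cells, where the median of all genes was 0.03 in each line. With each array centred on its own median, 11 members rose and 14 fell in knockdown cells, in place of 16 and 12, where 9.19% of all genes rose and 29.1% fell. In control cells 12 members rose and 12 fell with that centring, in place of 14 and 10, where 10.8% of all genes rose and 23.2% fell. In such bulk samples fewer cells of a type and less RNA per cell cannot be told apart.

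**Figure D1:**
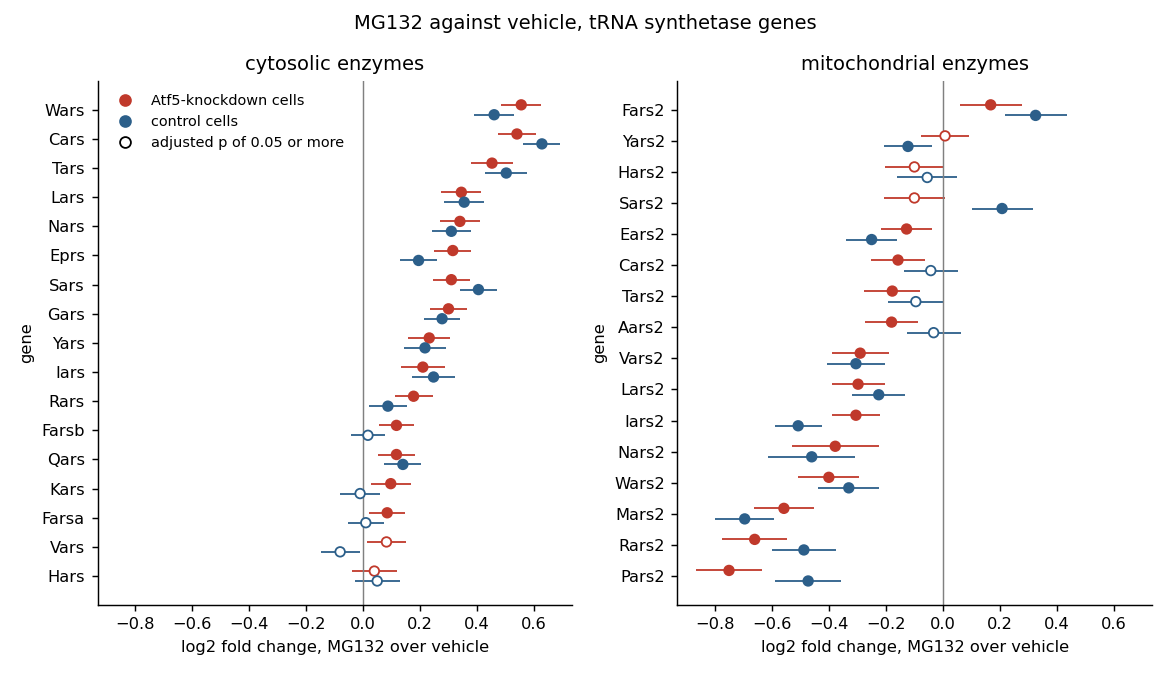
Log2 fold change of MG132 over vehicle for each cytosolic (left panel) and mitochondrial (right panel) synthetase gene, in knockdown cells (red) and control cells (blue), with bars for the 95% confidence interval of the limma fit and open points where the adjusted p was 0.05 or more. Most cytosolic genes lie right of 0, up to 0.63 for Cars in control cells, and most mitochondrial genes lie left of it, down to -0.75 for Pars2 in knockdown cells.

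The arrays with and without MG132 were fully apart for 28 of the 33 genes in knockdown cells, 16 cytosolic and 12 mitochondrial, where 38.5% of all genes had no overlap. In control cells this held for 22 genes, 11 of each class, against 32.9% of all genes. Averaged over the 17 cytosolic genes, the MG132 arrays lay 0.24 to 0.28 above the vehicle mean of their own line in knockdown cells and 0.19 to 0.25 above it in control cells. The single vehicle arrays deviated from that mean by no more than 0.02. Over the 16 mitochondrial genes the MG132 arrays lay between -0.31 and -0.22 in knockdown cells and between -0.28 and -0.16 in control cells. Vehicle arrays lay between -0.04 and 0.05 in knockdown cells and between -0.02 and 0.02 in control cells. No MG132 array overlapped a vehicle array of its line in either class mean.

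**Figure D2:**
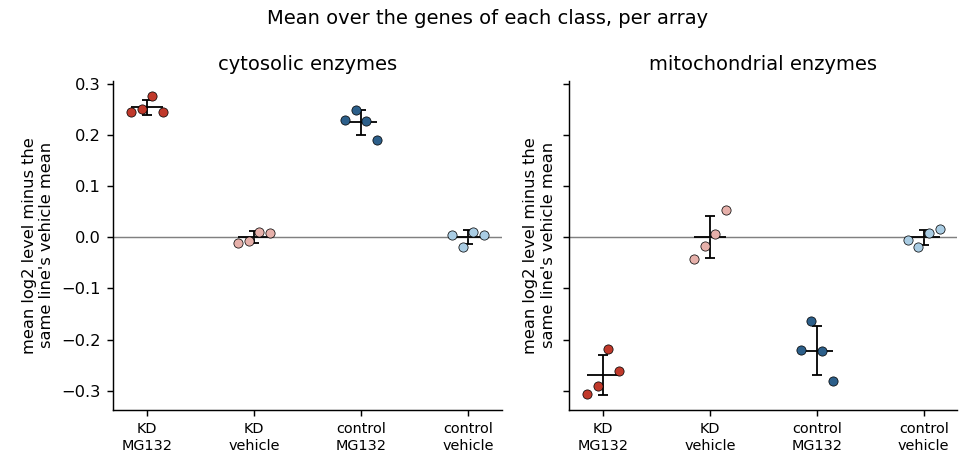
Mean log2 level over the 17 cytosolic (left) and 16 mitochondrial (right) genes on each array, minus the vehicle mean of the same line. Points are arrays, and the horizontal lines and bars are group means ± SD (n = 4). The cytosolic means of the MG132 arrays lie at 0.19 to 0.28 and the mitochondrial means at -0.31 to -0.16.

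Among the cytosolic genes that rose, those for cysteine, tryptophan and threonine had the largest changes in both lines. Cars, the cysteine enzyme, read 12.14, 12.17, 12.17 and 12.13 with MG132 and 11.63, 11.61, 11.61 and 11.60 with vehicle in knockdown cells. In control cells Cars read 11.92, 11.91, 11.84 and 11.88 with MG132 and 11.25, 11.22, 11.25 and 11.32 with vehicle. Every MG132 array was higher than every vehicle array of its line, and the increase was 1.45-fold in knockdown cells (log2 0.54 ± 0.03, limma adjusted p = 5.46e-10) and 1.54-fold in control cells (0.63 ± 0.03, adjusted p = 8.93e-11).

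Wars, the tryptophan enzyme, which interferon is also known to induce, read 12.63, 12.65, 12.64 and 12.60 with MG132 and 12.11, 12.03, 12.10 and 12.06 with vehicle in knockdown cells. Its control cells read 12.47, 12.43, 12.36 and 12.38 with MG132 and 11.98, 11.90, 11.95 and 11.97 with vehicle. Wars rose 1.47-fold in knockdown cells (0.56 ± 0.03, limma adjusted p = 1.06e-09) and 1.38-fold in control cells (0.46 ± 0.03, adjusted p = 9.18e-09), with no overlap of arrays. Tars, the threonine enzyme, whose promoter letters are shown above, read 12.21, 12.24, 12.27 and 12.23 with MG132 and 11.77, 11.79, 11.77 and 11.81 with vehicle in knockdown cells. In control cells Tars read 11.87, 11.98, 11.94 and 11.84 with MG132 and 11.40, 11.44, 11.43 and 11.35 with vehicle. Tars thus rose 1.37-fold in knockdown cells (0.45 ± 0.04, limma adjusted p = 1.8e-08) and 1.42-fold in control cells (0.50 ± 0.04, adjusted p = 5.68e-09).

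Lars, the leucine enzyme of the complex, read 12.16, 12.19, 12.20 and 12.16 with MG132 and 11.79, 11.84, 11.83 and 11.87 with vehicle in knockdown cells. Control cells read 12.09, 12.14, 12.13 and 12.04 for Lars with MG132 and 11.74, 11.71, 11.80 and 11.73 with vehicle. The increase in Lars was 1.27-fold in knockdown cells (limma adjusted p = 2.01e-07) and 1.28-fold in control cells (adjusted p = 1.59e-07), again without overlap. Sars, the serine enzyme, read 13.26, 13.23, 13.26 and 13.25 with MG132 and 12.92, 12.91, 12.99 and 12.94 with vehicle in knockdown cells. In control cells Sars read 13.03, 13.02, 13.01 and 12.98 with MG132 and 12.63, 12.55, 12.61 and 12.63 with vehicle. Sars rose by 0.31 on the log2 scale in knockdown cells (limma adjusted p = 2.78e-07) and by 0.41 in control cells (adjusted p = 1.27e-08).

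**Figure D3:**
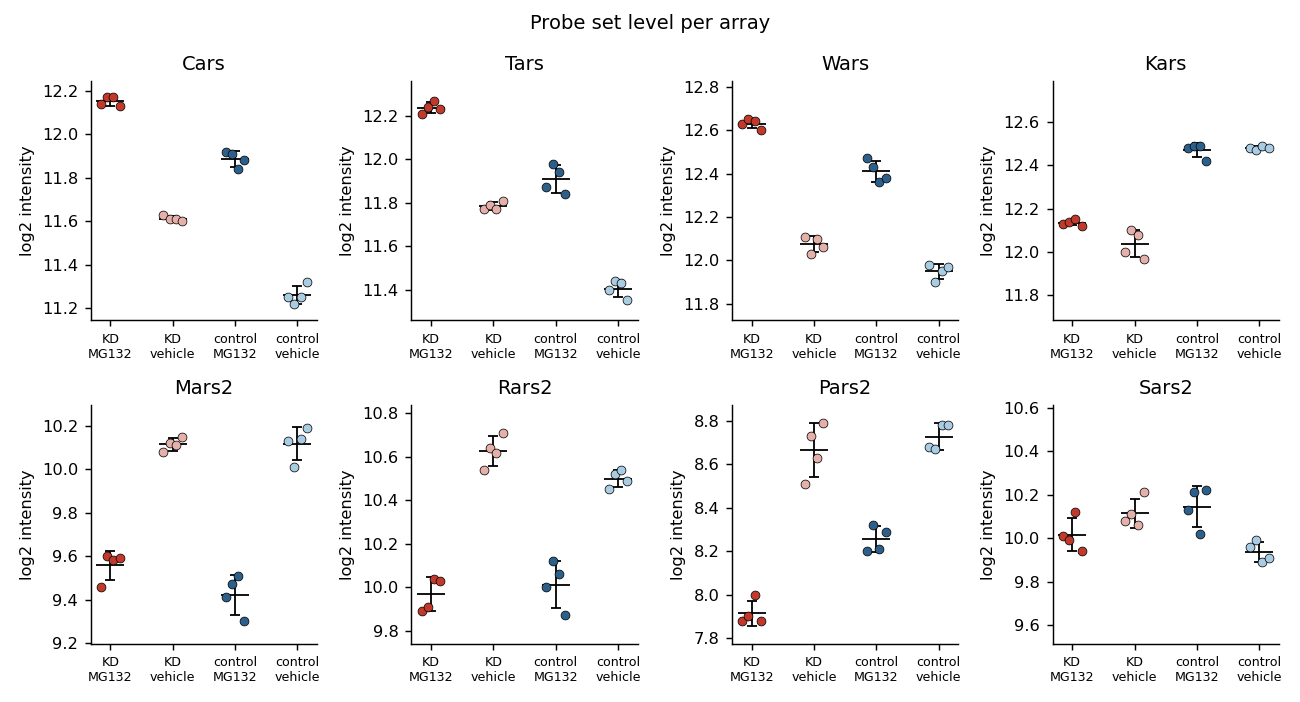
Log2 probe set intensity on each array for 8 synthetase genes, with group means ± SD (n = 4) and 1 panel per gene on its own axis. Cars, Tars and Wars are higher with MG132 in both lines, Mars2, Rars2 and Pars2 are lower with it, Kars separates the lines, and Sars2 changed by 0.21 (log2) in control cells and by -0.10, which did not pass, in knockdown cells.

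The smallest increases that passed were in genes of the complex and in the 2 subunit genes of the phenylalanine enzyme. Kars, which serves lysine in both compartments, read 12.13, 12.14, 12.15 and 12.12 with MG132 and 12.00, 12.10, 12.08 and 11.97 with vehicle in knockdown cells. Control cells read 12.48, 12.49, 12.49 and 12.42 for Kars with MG132 and 12.48, 12.47, 12.49 and 12.48 with vehicle. The knockdown arrays did not overlap (log2 0.10, limma adjusted p = 0.026), and the control arrays differed by -0.01 (adjusted p = 0.853). Farsa, the catalytic alpha subunit for phenylalanine, read 11.46, 11.43, 11.49 and 11.44 with MG132 and 11.37, 11.34, 11.37 and 11.40 with vehicle in knockdown cells. In control cells Farsa read 11.29, 11.33, 11.27 and 11.26 with MG132 and 11.26, 11.26, 11.27 and 11.32 with vehicle. Farsa changed by 0.09 in knockdown cells (limma adjusted p = 0.0311) and by 0.01 in control cells (adjusted p = 0.837). The knockdown calls of Kars and Farsa were lost without any of 4 single arrays each (adjusted p 0.0559 to 0.101 for Kars without knockdown vehicle 1 or 4 or knockdown MG132 2 or 3, and 0.0623 to 0.0914 for Farsa without knockdown vehicle 2 or 3 or knockdown MG132 1 or 3).

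Rars, the arginine enzyme, read 13.21, 13.24, 13.24 and 13.25 with MG132 and 13.07, 13.03, 13.06 and 13.07 with vehicle in knockdown cells. Control cells read 13.22, 13.22, 13.18 and 13.16 for Rars with MG132 and 13.08, 13.05, 13.16 and 13.14 with vehicle. The arrays were apart in knockdown cells (log2 0.18, limma adjusted p = 0.000185), while those of control cells met at 13.16 (0.09, adjusted p = 0.0394). Dropping any 1 of 7 arrays ended that control call, namely knockdown vehicle 3, knockdown MG132 2, control MG132 1, 2 or 3, and control vehicle 1 or 2 (adjusted p 0.0501 to 0.133). Qars, the glutamine enzyme, read 11.95, 11.95, 11.99 and 11.96 with MG132 and 11.86, 11.83, 11.86 and 11.83 with vehicle in knockdown cells. In control cells Qars read 12.21, 12.23, 12.21 and 12.13 with MG132 and 12.09, 12.03, 12.07 and 12.03 with vehicle. Qars rose by 0.12 in knockdown cells (limma adjusted p = 0.00488) and by 0.14 in control cells (adjusted p = 0.00138), with all MG132 arrays higher. With median centring the changes of Qars were 0.06 in knockdown and 0.09 in control cells, and neither passed (limma adjusted p = 0.28 and 0.0918).

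The 6 measured synthetase genes of the multi-synthetase complex all rose in knockdown cells and 5 rose in control cells, where Kars did not pass, with median log2 fold changes of 0.19 in knockdown and 0.17 in control cells. Of the other 11 cytosolic genes, 9 rose in knockdown and 7 in control cells, with medians of 0.30 in knockdown and 0.28 in control cells. Eprs, a single protein that charges both glutamate and proline tRNAs, rose by 0.32 in knockdown and 0.20 in control cells. Nars, for asparagine, rose by 0.34 in knockdown and 0.31 in control cells, and Gars, for glycine, by 0.30 and 0.28 in the same lines. Yars, for tyrosine, rose by 0.23 in knockdown and 0.22 in control cells. Iars, for isoleucine, rose by 0.21 in knockdown and 0.25 in control cells on the probe set used, and by 0.29 and 0.37 on its second probe set. Farsb, the beta subunit for phenylalanine, rose by 0.12 in knockdown cells (limma adjusted p = 0.0031), against a change of 0.02 in control cells (adjusted p = 0.692). With median centring the knockdown change of Farsb was 0.06 and did not pass (limma adjusted p = 0.272). Hars, for histidine, did not pass in either line (0.04 in knockdown and 0.05 in control cells), nor did Vars, for valine (0.08 in knockdown and -0.08 in control cells). Vars passed in 9 of 27 alternative settings in knockdown cells and in 5 of 27 in control cells (limma adjusted p 0.0124 to 0.71 and 0.00967 to 0.535).

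In all, 12 cytosolic genes rose in both lines. The 4 genes with the TGATGNAA letters, Tars, Yars, Iars and Gars, were among these, and so were 3 of the 6 whose windows lack them, Eprs, Qars and Sars. The remaining 3 without the letters, Farsa, Farsb and Kars, passed in knockdown cells alone, although the difference between the lines did not pass for any of them. Cars, Wars, Lars, Nars and Rars also rose in both lines and have no window here.

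The 2 mitochondrial genes with the lowest log2 changes were those for proline and arginine in knockdown cells and those for methionine and isoleucine in control cells. Pars2, the mitochondrial proline enzyme, read 7.88, 7.90, 8.00 and 7.88 with MG132 and 8.51, 8.73, 8.63 and 8.79 with vehicle in knockdown cells. In control cells Pars2 read 8.20, 8.32, 8.21 and 8.29 with MG132 and 8.68, 8.67, 8.78 and 8.78 with vehicle. All MG132 arrays were lower, and the log2 change was -0.75 ± 0.05 (a change of -40.5%, limma adjusted p = 8.67e-09) in knockdown cells and -0.47 ± 0.05 (-27.9%, adjusted p = 2.15e-06) in control cells. Rars2, the mitochondrial arginine enzyme, read 9.89, 9.91, 10.04 and 10.03 with MG132 and 10.54, 10.64, 10.62 and 10.71 with vehicle in knockdown cells. Control cells read 10.00, 10.12, 10.06 and 9.87 for Rars2 with MG132 and 10.45, 10.52, 10.54 and 10.49 with vehicle. Rars2 changed by -0.66 ± 0.05 (-36.7%, limma adjusted p = 2.89e-08) in knockdown cells and by -0.49 ± 0.05 (-28.7%, adjusted p = 1.13e-06) in control cells.

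Mars2, the mitochondrial methionine enzyme, read 9.46, 9.60, 9.58 and 9.59 with MG132 and 10.08, 10.12, 10.11 and 10.15 with vehicle in knockdown cells. In control cells Mars2 read 9.41, 9.47, 9.51 and 9.30 with MG132 and 10.13, 10.01, 10.14 and 10.19 with vehicle. The groups were fully apart, with a log2 change of -0.56 ± 0.05 (-32.1%, limma adjusted p = 7.9e-08) in knockdown cells and -0.70 ± 0.05 (-38.2%, adjusted p = 6.37e-09) in control cells. Iars2, the mitochondrial isoleucine enzyme, read 11.15, 11.07, 11.14 and 11.15 with MG132 and 11.39, 11.44, 11.46 and 11.44 with vehicle in knockdown cells. Control cells read 11.20, 11.35, 11.31 and 11.19 for Iars2 with MG132 and 11.73, 11.76, 11.81 and 11.78 with vehicle. Iars2 changed by -0.31 ± 0.04 (limma adjusted p = 5.96e-06) in knockdown cells and by -0.51 ± 0.04 (-29.7%, adjusted p = 1.78e-08) in control cells.

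Decreases in both lines were also measured for Wars2 (log2 -0.40 in knockdown and -0.33 in control cells), Nars2 (-0.38 and -0.46 in the same lines), Vars2 (-0.29 and -0.31) and Lars2 (-0.30 and -0.23), the mitochondrial enzymes for tryptophan, asparagine, valine and leucine. Ears2, for glutamate, read 8.76, 8.79, 8.88 and 8.81 with MG132 and 8.91, 8.86, 8.97 and 9.01 with vehicle in knockdown cells. In control cells Ears2 read 8.52, 8.49, 8.63 and 8.46 with MG132 and 8.77, 8.76, 8.81 and 8.76 with vehicle. Arrays overlapped in knockdown cells (-0.13, limma adjusted p = 0.024) and were apart in control cells (-0.25, adjusted p = 0.000142). Without knockdown vehicle 3 or 4, or knockdown MG132 1 or 2, the knockdown call of Ears2 was lost (adjusted p 0.0595 to 0.0876). Aars2, Cars2 and Tars2, for alanine, cysteine and threonine, passed in knockdown cells (-0.18, -0.16 and -0.18) and did not pass in control cells (-0.03, -0.04 and -0.10). With a second quantile normalization the knockdown changes were -0.08 each for Cars2 and Ears2 and did not pass (limma adjusted p = 0.223 and 0.167). Yars2, for tyrosine, changed by 0.01 in knockdown cells and -0.12 in control cells (limma adjusted p = 0.0238). That control call was lost without control vehicle 1 or 3 or control MG132 1, 3 or 4 (adjusted p 0.0501 to 0.0754). Hars2, for histidine, passed in neither line (-0.10 in knockdown and -0.06 in control cells).

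Fars2 was the mitochondrial gene that rose in both lines. This enzyme, which charges mitochondrial phenylalanine tRNA, read 9.30, 9.42, 9.25 and 9.53 with MG132 and 9.20, 9.16, 9.23 and 9.24 with vehicle in knockdown cells. In control cells Fars2 read 9.48, 9.56, 9.46 and 9.41 with MG132 and 9.16, 9.19, 9.14 and 9.12 with vehicle. The MG132 arrays were above the vehicle arrays in each line, by 0.17 ± 0.05 in knockdown cells (limma adjusted p = 0.0146) and by 0.33 ± 0.05, or 1.25-fold, in control cells (adjusted p = 6.54e-05). The knockdown call was lost without knockdown MG132 array 4, which read 9.53 (adjusted p = 0.0552).

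Pairing by gene name, as Cars with Cars2, gave 11 amino acids with both a cytosolic and a mitochondrial gene. Phenylalanine, glutamate and proline also had measured genes of both sets, but under unlike names, and were not tested as pairs. The log2 ratio of the cytosolic to the mitochondrial signal was taken on the same array. A shift common to a whole array cancels in that ratio. MG132 moved that ratio toward the cytosolic gene in 11 of 11 pairs in knockdown cells, by 0.14 to 0.96 (median 0.63), and the arrays did not overlap in any pair. In control cells the change was positive in 11 pairs too, by 0.11 to 0.79 (median 0.58), and 10 of the pairs had no overlap. The exact two-sided permutation p was 0.0286 in each pair without overlap, the smallest that 4 against 4 arrays can give (0.0299 after Benjamini-Hochberg adjustment over the 22 tests). The pair Wars and Wars2 changed most, by 0.96 in knockdown and 0.79 in control cells. Hars and Hars2 changed least, by 0.14 in knockdown cells and 0.11 in control cells, where the exact permutation p was 0.229. In control cells Sars and Sars2 both rose, and their ratio changed by 0.20. For phenylalanine, outside these pairs, the mitochondrial gene had the larger increase in both lines, which was not tested. Fars2 changed by 0.17 in knockdown and 0.33 in control cells, against 0.09 and 0.01 for Farsa and 0.12 and 0.02 for Farsb. For glutamate and proline, Eprs rose while Ears2 and Pars2 fell in both lines. The 11 pairs use the same gene values as the responses above and are no separate evidence.

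**Figure D4:**
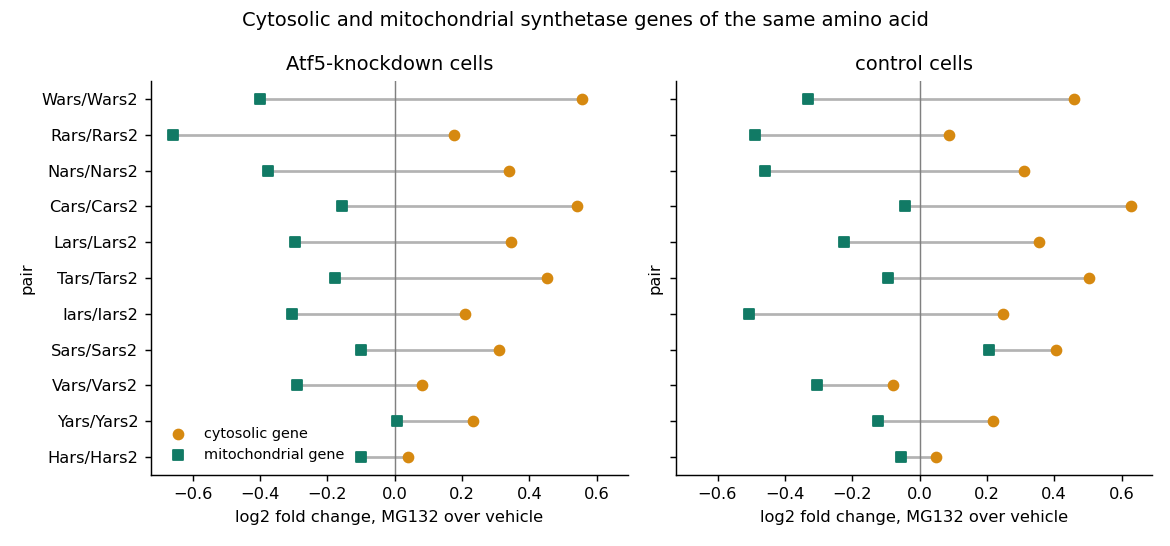
Log2 fold change of MG132 over vehicle for the cytosolic (orange circles) and mitochondrial (green squares) gene of each of 11 amino acids, in knockdown cells (left) and control cells (right), with a grey line joining each pair. The cytosolic gene lies to the right of its mitochondrial partner in all 11 pairs of both lines. Phenylalanine, glutamate and proline, whose genes do not pair by name, are not shown.

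The next comparisons ask how the lines differ within a treatment. Of the 17 cytosolic genes 10 were higher and 3 lower in knockdown cells with MG132, and 12 were higher and 3 lower with vehicle. Of the mitochondrial genes 2 were higher and 6 lower with MG132, and 3 were higher and 5 lower with vehicle. Among all genes, 17.7% were higher and 20.3% lower in knockdown cells with MG132, and 21.5% were higher and 17.9% lower with vehicle. The lines' arrays had no overlap for 21 of the 33 genes with MG132 (34.7% of all genes) and for 22 with vehicle (38.7% of all genes). The median log2 difference of the cytosolic genes was 0.17 with MG132 and 0.12 with vehicle. That of the mitochondrial genes was -0.08 with MG132 and 0.00 with vehicle.

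**Figure D5:**
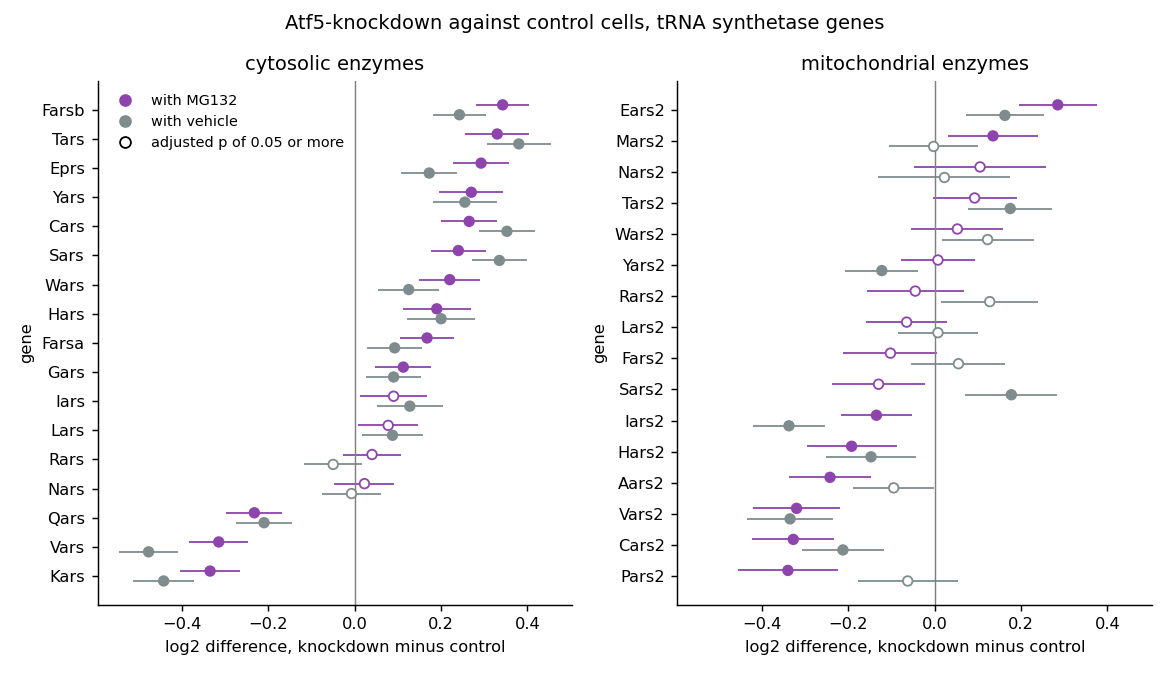
Log2 difference of knockdown minus control cells for each cytosolic (left) and mitochondrial (right) gene, with MG132 (purple) and with vehicle (grey), bars for the 95% confidence interval and open points where the adjusted p was 0.05 or more. Farsb, Tars and Cars lie among the highest cytosolic genes, and Kars, Vars and Qars lie left of 0 with both treatments.

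Farsb had the largest positive difference with MG132. It read 11.91, 11.88, 11.89 and 11.82 in knockdown cells and 11.55, 11.54, 11.50 and 11.54 in control cells with MG132, and 11.75, 11.77, 11.76 and 11.75 in knockdown cells and 11.50, 11.53, 11.53 and 11.50 in control cells with vehicle. The knockdown arrays were all higher, by 0.34 ± 0.03 with MG132 (1.27-fold, limma adjusted p = 3.67e-08) and 0.24 with vehicle (adjusted p = 2.16e-06). Tars, with the array values above, was higher by 0.33 with MG132 (limma adjusted p = 6.54e-07) and by 0.38 ± 0.04, or 1.3-fold, with vehicle (adjusted p = 1.01e-07). Eprs read 12.47, 12.45, 12.47 and 12.52 in knockdown cells and 12.20, 12.18, 12.20 and 12.16 in control cells with MG132, and 12.12, 12.14, 12.17 and 12.22 in knockdown cells and 11.98, 11.97, 12.02 and 11.99 in control cells with vehicle. Eprs was higher in knockdown cells by 0.29 ± 0.03 with MG132 (1.22-fold, limma adjusted p = 5.62e-07) and by 0.17 with vehicle (adjusted p = 0.000178).

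Cars was higher in knockdown cells by 0.27 with MG132 (limma adjusted p = 1.89e-06) and 0.35 with vehicle (adjusted p = 5.08e-08). Sars was higher by 0.24 with MG132 (adjusted p = 4.99e-06) and 0.34 with vehicle (limma adjusted p = 7.87e-08). Wars, Yars, Hars, Farsa and Gars were also higher with both treatments, by 0.09 to 0.27, and Iars and Lars passed with vehicle alone. Without single arrays the vehicle calls of Lars (any of 10 arrays, adjusted p 0.0507 to 0.124), Gars (control vehicle 2 or 3 or knockdown vehicle 1, 0.0571 to 0.0946) and Farsa (control vehicle 2 or knockdown vehicle 4, 0.0515 to 0.0613) were lost. For Lars these were knockdown MG132 1, 2 or 4, knockdown vehicle 2, 3 or 4, control MG132 1 and control vehicle 1, 2 or 4. Nars and Rars passed with neither treatment.

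Kars, Vars and Qars went the other way with both treatments. The Kars arrays given above were lower in knockdown cells by a log2 difference of -0.34 ± 0.03 with MG132 (-20.7%, limma adjusted p = 2.73e-07) and -0.44 ± 0.03 with vehicle (-26.4%, adjusted p = 7.02e-09). Vars, whose enzyme is bound to the elongation factor complex, read 11.74, 11.69, 11.74 and 11.71 in knockdown cells and 12.03, 12.06, 12.03 and 12.02 in control cells with MG132. With vehicle Vars read 11.68, 11.59, 11.63 and 11.65 in knockdown cells and 12.16, 12.09, 12.06 and 12.15 in control cells. The lines were far apart in both treatments, with differences of -0.32 with MG132 (limma adjusted p = 4.08e-07) and -0.48 ± 0.03 with vehicle (-28.2%, adjusted p = 1.82e-09). Qars differed by -0.23 with MG132 (limma adjusted p = 7.81e-06) and by -0.21 with vehicle (adjusted p = 2.19e-05).

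Of the mitochondrial genes, Pars2 and Cars2 were lowest in knockdown relative to control cells with MG132, and Iars2 with vehicle. Pars2 differed by -0.34 with MG132 (limma adjusted p = 6.71e-05) and by -0.06 with vehicle (adjusted p = 0.434). Cars2, the mitochondrial cysteine enzyme, read 9.64, 9.63, 9.69 and 9.59 in knockdown cells and 10.01, 10.01, 9.95 and 9.89 in control cells with MG132. With vehicle Cars2 read 9.82, 9.76, 9.81 and 9.79 in knockdown cells and 10.15, 9.94, 9.99 and 9.95 in control cells. Its differences were -0.33 ± 0.04 with MG132 (-20.3%, limma adjusted p = 1.26e-05) and -0.21 with vehicle (adjusted p = 0.000885), with all knockdown arrays lower. Iars2 differed by -0.14 with MG132 (limma adjusted p = 0.0104, and 0.0582 with median centring) and by -0.34 with vehicle (adjusted p = 1.61e-06).

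Vars2 was lower in knockdown cells with both treatments (-0.32 with MG132 and -0.34 with vehicle), as was Hars2 (-0.19 with MG132 and -0.15 with vehicle). Ears2 was higher with both, by 0.29 with MG132 (limma adjusted p = 3.23e-05) and 0.16 with vehicle (adjusted p = 0.00502). Aars2 was lower with MG132 (-0.24), and Mars2 was higher with it by 0.14 (limma adjusted p = 0.0383). With vehicle, Sars2 and Tars2 were higher by 0.18 each and Yars2 was lower by a log2 difference of -0.12. The calls of Mars2 with MG132, and of Hars2 and Yars2 with vehicle, were borderline and were lost when any of several single arrays was left out. Mars2 was lost without control MG132 1 or 4 or knockdown MG132 2, 3 or 4 (adjusted p 0.0791 to 0.129). Hars2 was lost without control vehicle 3 or 4 or knockdown vehicle 1 or 2 (0.0576 to 0.087), and Yars2 without control vehicle 3 or knockdown vehicle 2 (0.0556 to 0.0748). Fars2, Lars2, Nars2, Rars2 and Wars2 passed with neither treatment. With vehicle Wars2 (0.12) passed in 9 and Rars2 (0.13) in 7 of the 27 alternative settings (limma adjusted p 0.0169 to 0.165 and 0.018 to 0.206).

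Whether the response to MG132 itself differed between the lines was tested as the knockdown response minus the control response, which uses all 16 arrays and so shares them with the comparisons above. It passed for 4 of the 33 genes, Vars and Iars2 on the positive side and Pars2 and Sars2 on the negative side, or 2 in each direction, against 4.45% of all genes on the positive side and 10.1% on the negative side. The 4 genes were 12.1% of the members, so their number did not stand out from all genes. The MG132 responses of the other 29 genes were not shown to differ between the lines. For Vars the response was 0.08 in knockdown cells and -0.08 in control cells, neither of which passed, with a difference of 0.16 ± 0.05 (limma adjusted p = 0.0233). It did not pass without control vehicle 4 (adjusted p = 0.0521) or knockdown vehicle 2 (0.0536). Iars2 fell less in knockdown than in control cells, with a difference of 0.20 ± 0.06 (limma adjusted p = 0.0201).

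Pars2 fell more in knockdown cells, with a difference of -0.28 ± 0.08 (limma adjusted p = 0.0224). Sars2, the mitochondrial serine enzyme, read 10.01, 9.99, 10.12 and 9.94 with MG132 and 10.08, 10.11, 10.06 and 10.21 with vehicle in knockdown cells. In control cells Sars2 read 10.13, 10.21, 10.02 and 10.22 with MG132 and 9.96, 9.99, 9.89 and 9.91 with vehicle. The control arrays were fully apart, with MG132 higher by 0.21 ± 0.05 (limma adjusted p = 0.00332), while the knockdown arrays overlapped, with a change of -0.10 ± 0.05 (adjusted p = 0.129). The responses of Sars2 differed by -0.31 ± 0.07 (limma adjusted p = 0.00774). Cars and Sars had smaller log2 changes in knockdown than in control cells, and Eprs and Wars larger ones, but their differences of -0.09, -0.10, 0.12 and 0.10 did not pass (adjusted p 0.0782 to 0.219).

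Other genes of tRNA charging and its sensing are given from 3 lists. Of 13 measured genes for scaffolds, editing and cytosolic tRNA handling, 3 rose and 5 fell in knockdown cells with MG132, and 2 rose and 6 fell in control cells. For comparison, 16.4% of all genes rose and 24.3% fell in knockdown cells, and 16.8% rose and 19.0% fell in control cells. Xpot, which exports tRNAs from the nucleus, rose by 0.33 ± 0.05 in knockdown and 0.44 ± 0.05 in control cells. Aimp1, a scaffold protein of the multi-synthetase complex, rose by 0.11 in knockdown and 0.12 in control cells. Pstk, a kinase in the making of selenocysteine tRNA, had log2 changes of -0.72 in knockdown and -0.54 in control cells. Dtd2, a deacylase that removes mischarged amino acids from tRNA, changed by -0.64 in knockdown and -0.61 in control cells. Between the lines 1 gene of this list was higher and 5 were lower in knockdown cells with MG132, and 1 was higher and 8 were lower with vehicle. The shares of all genes were 17.7% higher and 20.3% lower with MG132, and 21.5% higher and 17.9% lower with vehicle.

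Of 16 genes for mitochondrial tRNA and translation factors, 3 rose and 9 fell in knockdown cells with MG132, and 1 rose and 6 fell in control cells. Beside these counts, 16.4% of all genes rose and 24.3% fell in knockdown cells, and 16.8% rose and 19.0% fell in control cells. Mtfmt, which formylates the mitochondrial initiator tRNA, changed by -0.62 ± 0.04 in knockdown and -0.45 ± 0.04 in control cells. Gatc, a subunit of the amidotransferase that forms mitochondrial glutaminyl-tRNA, changed by -0.50 ± 0.04 in knockdown and -0.58 ± 0.04 in control cells. Gfm2, a factor in recycling mitochondrial ribosomes, changed by -0.50 in knockdown and -0.38 in control cells. Tufm, the mitochondrial elongation factor that carries charged tRNA, rose by 0.15 in knockdown cells and also passed in control cells at 0.15. Between the lines 4 of these genes were higher and 5 lower in knockdown cells with MG132, and 3 were higher and 6 lower with vehicle. Across all genes 17.7% were higher and 20.3% lower with MG132, and 21.5% were higher and 17.9% lower with vehicle.

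Of 14 genes for sensing uncharged tRNA and for the ATF4 pathway, 10 rose and 1 fell with MG132 in knockdown cells, and 10 rose and 1 fell in control cells. The shares of all genes were 16.4% higher and 24.3% lower in knockdown cells, and 16.8% higher and 19.0% lower in control cells. The median log2 fold change of the list was 0.33 in knockdown and 0.29 in control cells. Atf4 rose by 0.36 ± 0.03 in knockdown and 0.32 ± 0.03 in control cells. Asns, the asparagine synthetase, which makes the amino acid itself, rose by 0.24 in knockdown and 0.22 in control cells. Eif2ak4, the kinase GCN2 that senses uncharged tRNA, changed by -0.14 in knockdown cells (limma adjusted p = 0.0106) and by 0.08 in control cells (adjusted p = 0.172), and the difference of -0.22 passed (adjusted p = 0.0178). With MG132, 8 genes of this list were higher and 3 lower in knockdown than in control cells, and with vehicle 10 were higher and 4 lower. The list holds Atf5, the target of the shRNA, which is counted among the lower genes with both treatments. Across all genes 17.7% were higher and 20.3% lower with MG132, and 21.5% were higher and 17.9% lower with vehicle. Atf4 was higher in knockdown cells by 0.27 with MG132 and by 0.23 with vehicle. The 3 lists had 0, 2 and 6 genes whose MG132 responses differed between the lines. The 2 mitochondrial factors were on the positive side, and of the 6 ATF4 pathway and sensing genes 2 were positive and 4 negative. Shares of all genes in that comparison were 4.45% on the positive side and 10.1% on the negative side.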

How the data were processed

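The authors deposited log2 probe set intensities, given to 2 decimals, for 35556 probe sets on 16 arrays. The submitters' processing notes name Partek and RMA, without versions or settings. The array design's build is likewise not given in the sources here. RMA equalises arrays, so a shift of most genes together would be hidden, and changes of dim or very bright probe sets can be compressed. The number of arrays limits the precision. No detection calls were used.

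Probe sets were named through the platform annotation: 21789 had 1 gene symbol, and 1621 with several were left out. The brightest probe set of each gene was kept, which left 19938 genes. Groups and replicate numbers came from the sample labels. The 4 group means were estimated together with limma 3.58.1 (lmFit, then eBayes; R 4.3.3) and contrasts tested two-sided, on 12 residual plus 4.12 prior degrees of freedom. Adjustment was by Benjamini-Hochberg over all genes at a threshold of 0.05. Ratios of pairs matched by gene name were tested with an exact permutation test.

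The members and lists were chosen with earlier results of these data known. Values per array are given, per MG132 response, for the called members with the 4 highest and 2 lowest log2 fold changes among cytosolic and the 2 highest and 2 lowest among mitochondrial genes. For the other comparisons they are given for the 3 highest and 3 lowest called members. Synthetase genes outside the list are not given. Alternatives were a second quantile normalization, median centring, a filter at the 25th percentile, averaging a gene's probe sets, fitting only the groups compared, a trended robust prior, array weights, no moderation, a block for the replicate number, and dropping each array in turn. Dropping 4 arrays low on a within-group gradient (knockdown vehicle 1, control MG132 4, and control vehicle 1 and 4) was chosen after seeing the data. These are not the 4 lowest arrays, since knockdown MG132 2 (score -4.269) lay just below control vehicle 4 (-4.266) and was kept. A set that drops knockdown MG132 2 and keeps control vehicle 4 was added too, also after seeing the data. Promoter windows are RefSeq sequences of GRCm38.p6. Figures were drawn in matplotlib 3.10.9 under Python 3.11.15.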

Additional observations from a re-analysis of the deposited data

Results flagged for a closer look

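Of 132 groups of 4 arrays (33 genes in 4 groups), 7 held an array whose gap to its nearest neighbour took up more of the group's range than Dixon's 95% critical value for 4 samples. Chance flags about 1 group in 20 in this way. In knockdown cells with MG132, Iars2 read 11.07 on array 2, against 11.14 to 11.15 on the others. Mars2 read 9.46 on array 1 of that group, against 9.58 to 9.60, and Pars2 read 8.00 on array 3, against 7.88 to 7.90. In control cells with MG132, array 4 read 12.42 for Kars, against 12.48 to 12.49, and 8.31 for Lars2, against 8.50 to 8.51. Vars2 read 9.52 on array 3 of that group, against 9.58 to 9.59. In control cells with vehicle, Farsa read 11.32 on array 4, against 11.26 to 11.27.

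The response to MG132 differed between the lines for 4 of the 33 genes, as the knockdown log2 change minus the control one. In that comparison 4.45% of all genes passed on the positive side and 10.1% on the negative side. The 4 genes were 12.1% of the members, so their number did not stand out from all genes. The difference was 0.16 for Vars, 0.20 for Iars2, -0.28 for Pars2 and -0.31 for Sars2. Over the 27 alternatives it kept its sign for each, at 0.13 to 0.18 for Vars, 0.18 to 0.23 for Iars2, -0.33 to -0.24 for Pars2 and -0.35 to -0.26 for Sars2. The difference passed in all 27 for Pars2 and Sars2 alone.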

How the results depend on the processing

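No call of a member changed sign under any of the 27 alternatives. Calls kept in all of them numbered 21 of 28 for the MG132 response in knockdown cells, 20 of 24 in control cells, 19 of 21 for the line difference with MG132, 18 of 23 with vehicle and 2 of 4 for the difference of the responses (Pars2 and Sars2). Members not called as reported passed under at least 1 alternative in 3, 2, 5, 3 and 8 cases, in the same order of comparisons. The count of cytosolic genes in the last comparison, 1 as reported, was 0 with median centring, 2 with the filter at the 25th percentile, 3 with the trended robust prior, 4 with no moderation and 0 without the 4 low-gradient arrays, and the cause was not tested. At an unadjusted limma p below 0.05 it was 5 as reported, 1 with median centring and 3 without the 4 arrays. Leaving out each array gave 0 to 2, with 0 without control vehicle 4 or knockdown vehicle 2 (5 unadjusted each) and 2 without knockdown vehicle 4.

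Vars and Iars2 lost the difference of the responses with median centring (limma adjusted p = 0.0692 and 0.0699) and without the 4 low-gradient arrays (0.0956 and 0.076), over ranges of 0.00414 to 0.0956 for Vars and 0.00458 to 0.076 for Iars2. Median centring moved the median of all genes by -0.06 in the knockdown and -0.05 in the control response, and ended the knockdown calls of Farsa, Farsb, Kars, Qars and Fars2. It also ended the control calls of Qars and Rars (limma adjusted p = 0.0918 and 0.554), the line difference of Iars2 with MG132 (0.0582) and those of Lars, Hars2 and Yars2 with vehicle (0.0501, 0.111 and 0.123). It added Hars2 and Sars2 in knockdown cells and Vars and Tars2 in control cells, all lower with MG132. Without the 4 arrays Sars2 did not pass in control cells (limma adjusted p = 0.0594, range 0.000673 to 0.0594). When that set kept control vehicle 4 and dropped knockdown MG132 2, the differences of Vars and Iars2 and the control call of Sars2 passed. Calls then lost were Kars, Ears2 and Fars2 in knockdown cells (limma adjusted p = 0.0936, 0.0538 and 0.0673), Rars and Yars2 in control cells (0.0901 and 0.111), and, between the lines, Mars2 with MG132 (0.268) and Farsa and Yars2 with vehicle (0.0745 and 0.0971). Single left-out arrays gave 13 to 16 cytosolic and 12 to 14 mitochondrial calls in knockdown cells, and 11 to 13 and 11 to 12 in control cells. For the line difference they gave 13 to 14 cytosolic and 7 to 9 mitochondrial calls with MG132 and 12 to 15 and 6 to 10 with vehicle.

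The labels do not say that a replicate number pairs arrays, and the values did not settle it. Same-numbered arrays deviated from their group means with correlations of -0.245 to 0.396. Of these, 9 of 16 were over 0.1 (3 of 4 in each group pairing except knockdown against control with MG132, which had 0). With the replicate number as a block, calls were 15 higher and 12 lower in the knockdown response, 13 and 10 in the control response, 12 and 9 for the lines with MG132, 14 and 8 with vehicle, and 2 and 2 for the difference of the responses. The block ended the calls of Farsa in knockdown cells (limma adjusted p = 0.0561), Rars in control cells (0.0652), Mars2 between the lines with MG132 (0.0527) and Lars between them with vehicle (0.0575), and added Iars between the lines with MG132 (0.0461). Own-numbered arrays correlated best in 10 of 32 cases.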
